A study of Mus musculus with 11 samples.

Results

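Rian, Meg3, Mirg, Dlk1 and Grb10 are 5 of the 17097 genes measured in this study of T cells that infiltrate the lacrimal gland. They were selected on their RNA levels in these same arrays, namely on the signal of LG_eTconv cells against the other groups, so those levels are given as a description with no test. All 19 probe sets listed under exactly 1 of these symbols are included: 4 for Rian, 10 for Meg3, 1 each for Mirg and Dlk1 and 3 for Grb10. All cells were taken from male NOD mice 16 weeks of age, an inbred strain prone to autoimmune disease whose inflamed tear glands are used to model Sjögren's syndrome. From the gland, 3 arrays each held LG_eTreg (effector regulatory), LG_eTconv (effector conventional) and LG_naive (negative for PD1 and ICOS) CD4 T cells. Splenic T cells of these animals gave 1 array of all CD8 cells (Spl_CD8) and 1 of all CD4 cells (Spl_CD4). Both effector subsets were sorted as PD1-high and ICOS-high, and the design text prints the same CD73-low and CD200-low gate for both. The labels do not say whether arrays of a group came from separate mice or pools, so every p-value here measures only the spread between these arrays. Values are deposited log2 signals, with the base inferred from the RMA method, and their precision rests on how few arrays there are. A signal was called above background where it exceeded the highest nonspecific control probe set of its own array, a limit that ran from 0.945 to 1.70.

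Imprinted genes are transcribed from the copy inherited from only 1 parent, a choice kept by DNA methylation laid down in the germ line. In the Dlk1-Dio3 region of the mouse, the non-coding RNAs Meg3, Rian and Mirg come from the maternal copy, and the protein-coding genes Dlk1, Rtl1 and Dio3 mainly from the paternal copy. Rian hosts small nucleolar RNAs, Mirg hosts a cluster of microRNAs, and Dlk1 encodes a transmembrane protein related to Notch ligands. Grb10 lies on another chromosome and encodes an adaptor that binds the insulin and IGF1 receptors and restrains their signalling. It is maternally expressed in most mouse tissues. The arrays do not separate the parental copies, so nothing here bears on imprinting itself.

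In the RefSeq annotation of build GRCm38.p6, Dlk1 spans chr12:109452485-109463336, Meg3 chr12:109540996-109571729, Rian chr12:109603945-109661716 and Mirg chr12:109734981-109749458. Grb10 spans chr11:11930499-12037428. Windows of 300 bases around the annotated start, most of them before it, are shown for the 3 genes whose signal was far above background in LG_eTconv, with every CG, the dinucleotide that carries methylation, in capitals. They are RefSeq sequences of build GRCm38.p6 and not sequences read from these mice.
Meg3 window, chr12:109540746-109541045, plus strand: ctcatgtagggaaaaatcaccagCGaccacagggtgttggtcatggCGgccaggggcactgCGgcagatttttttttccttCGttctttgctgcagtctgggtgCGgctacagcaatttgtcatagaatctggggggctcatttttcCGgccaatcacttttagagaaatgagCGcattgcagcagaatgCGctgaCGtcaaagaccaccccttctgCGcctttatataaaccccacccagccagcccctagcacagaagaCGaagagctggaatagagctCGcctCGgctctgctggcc
Rian window, chr12:109603695-109603994, plus strand: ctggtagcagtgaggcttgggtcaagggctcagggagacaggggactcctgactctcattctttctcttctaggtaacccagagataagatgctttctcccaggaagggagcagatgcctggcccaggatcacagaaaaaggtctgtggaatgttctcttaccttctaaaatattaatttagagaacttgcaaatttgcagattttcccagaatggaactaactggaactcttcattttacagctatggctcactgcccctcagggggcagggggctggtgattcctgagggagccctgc
Grb10 window, chr11:12037371-12037670, minus strand: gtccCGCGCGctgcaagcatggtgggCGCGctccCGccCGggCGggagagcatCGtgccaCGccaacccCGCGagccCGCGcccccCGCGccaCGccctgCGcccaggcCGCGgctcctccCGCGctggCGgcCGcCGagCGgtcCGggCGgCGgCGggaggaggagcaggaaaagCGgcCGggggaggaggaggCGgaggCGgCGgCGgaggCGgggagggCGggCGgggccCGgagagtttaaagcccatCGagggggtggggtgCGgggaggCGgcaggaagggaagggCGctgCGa
These 3 starts were unlike in CG content. The Grb10 window held 45 CG, more than 98.1% of the 32851 mouse windows of this kind. The Meg3 window held 13 CG and the Rian window 0, against a median of 7. A second window listed for Grb10 held 9 CG and a second for Meg3 1, and nothing here shows which start these cells used. The Meg3 window also held the 8-base cAMP response element TGACGTCA at position -57 from the start, a match found in 1.79% of all windows, and 2 overlapping matches of TATATAA, 1 per strand, from position -28, found in 3.24%. Neither motif was found in the windows of Rian, Mirg or Dlk1, in either Grb10 window or in the second Meg3 window. The motif TGANTCA, present in 7.81% of windows, was not found in any of them. Motifs were chosen after the sequences had been read, both strands were searched, and a match describes letters only.

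The spans of the 3 non-coding genes contain 28 mature microRNAs from 15 hairpins listed in RefSeq: 3 in Meg3, 6 in Rian and 19 in Mirg. Those within Meg3 and Rian, the 2 non-coding hosts with signal above background, are shown 5′ to 3′ with the seed (bases 2 to 8), the part that pairs with target RNAs, in capitals.
mmu-miR-1906: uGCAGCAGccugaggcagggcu
mmu-miR-770-5p: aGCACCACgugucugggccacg
mmu-miR-770-3p: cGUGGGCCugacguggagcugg
mmu-miR-341-5p: cGGUCGGCcgaucgcucgguc
mmu-miR-341-3p: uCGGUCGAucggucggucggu
mmu-miR-1188-5p: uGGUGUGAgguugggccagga
mmu-miR-1188-3p: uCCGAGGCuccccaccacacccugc
mmu-miR-370-5p: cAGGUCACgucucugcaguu
mmu-miR-370-3p: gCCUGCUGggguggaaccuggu
No seed was shared among these 9. Among all 28 there were 27 distinct seeds, and the 1 shared seed, GGUUGCC, belonged to mmu-miR-453 and mmu-miR-496a-5p, both within Mirg. The arrays measured the host RNAs and not the microRNAs, so levels of these 9 were not analysed here.

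The labels were set against the RNA of the sorted cells. Foxp3, the lineage factor of regulatory T cells, had signals of 8.13 to 8.21 in LG_eTreg, 3.61 to 4.85 in LG_eTconv and 2.86 to 4.95 in LG_naive. Cd200 and Nt5e, which encodes CD73, were lower in each LG_eTreg array (8.12 to 8.32 and 7.63 to 8.02) than in any LG_eTconv array (9.24 to 9.49 and 8.68 to 8.87). Both were lower still in LG_naive (5.46 to 5.88 and 3.93 to 4.71), so neither effector group was low in these RNAs beside LG_naive. Pdcd1, which encodes PD1, read 6.77 to 8.16 in the effector arrays and 1.63 to 2.15 in LG_naive. Icos read 9.64 to 9.95 in the effector arrays and still 8.50 to 8.77 in LG_naive. In quality controls 3 libraries stood apart. The 18S signal was 6.76 in LG_eTreg 3 and 6.15 in LG_naive 1, against 3.57 to 5.34 elsewhere, and the actin probe sets, 3′ minus 5′, differed most in LG_eTconv 1, by 3.35.

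Rian RNA was abundant in LG_eTconv cells and near background in LG_naive cells. Its brightest probe set read 2.47, 1.30 and 1.90 on the LG_eTreg arrays, 6.16, 6.45 and 6.58 on the LG_eTconv arrays, and 0.90, 1.26 and 1.10 on the LG_naive arrays. The spleen arrays read 1.12 for Spl_CD8 and 2.66 for Spl_CD4. All 3 LG_eTconv arrays lay above the other 8, and the 3 gland groups did not overlap, though the lowest LG_eTreg array was only just above the highest LG_naive array. The LG_eTconv mean was 6.40 ± 0.22 and the LG_naive mean 1.08 ± 0.18 (SD, n = 3 each), a log2 difference of 5.32 (SE 0.27) or 39.8-fold. Only 1 of the 3 LG_naive arrays was above its background limit, so this fold depends on how background was treated. LG_eTreg averaged 1.89 ± 0.59 and was above the limit on all 3 arrays, with a log2 difference of -4.51 (SE 0.27) from LG_eTconv and 0.81 (SE 0.27) from LG_naive. In bulk RNA, fewer cells carrying a transcript and less of it per cell cannot be told apart.

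The other 3 Rian probe sets were much dimmer. One read 1.57, 1.94 and 1.57 in LG_eTconv, just above the limit on all 3 arrays, and between -0.42 and 0.07 on the other 8 arrays, so that LG_eTconv was at least 1.39-fold above LG_eTreg and at least 1.19-fold above LG_naive. Another was above background only on LG_eTconv 2, at 1.26. The last was below the limit on every array, yet its LG_eTconv signals of 0.76, 1.07 and 0.95 lay above the 0.10 to 0.45 of the other 8.

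**Figure D1:**
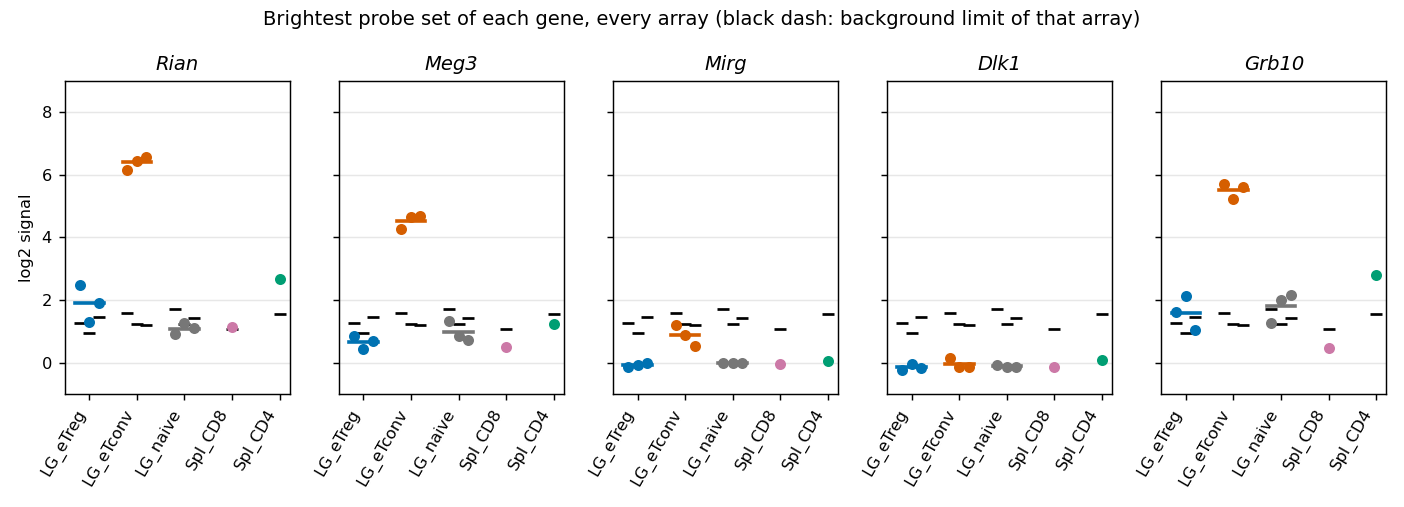
Log2 signal of the brightest probe set of Rian, Meg3, Mirg, Dlk1 and Grb10 on each of the 11 arrays, by group. Each point is an array, coloured lines are means of 3 arrays, and black dashes are the background limit of each array. Rian, Meg3 and Grb10 points of LG_eTconv stand between 4.27 and 6.58, while all Mirg and Dlk1 points lie below their dashes.

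Meg3, a long non-coding RNA known as a growth restrainer in several cell types, was above background in LG_eTconv cells. Its brightest probe set read 0.86, 0.44 and 0.69 on the LG_eTreg arrays, 4.27, 4.64 and 4.68 on the LG_eTconv arrays, and 1.34, 0.84 and 0.73 on the LG_naive arrays. Spl_CD8 read 0.48 and Spl_CD4 1.24. It exceeded the background limit on the 3 LG_eTconv arrays and on none of the other 8. LG_eTconv averaged 4.53 ± 0.22, at least 9.91-fold above LG_eTreg (0.66 ± 0.21) and at least 8.51-fold above LG_naive (0.97 ± 0.32; SD, n = 3 each), both computed against the background limit. The measured log2 difference was -3.87 for LG_eTreg minus LG_eTconv and 3.56 for LG_eTconv minus LG_naive (SE 0.20 each). LG_eTreg and LG_naive overlapped and were both below background, so no fold is given between them.

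Meg3 has the most probe sets of the 5 genes, and they did not read alike. The next brightest in LG_eTconv, which may also detect related transcripts by its type, read 0.98, 1.02 and 0.93 in LG_eTreg, 3.36, 3.32 and 3.97 in LG_eTconv and 1.32, 0.90 and 0.97 in LG_naive. A further probe set read 3.74, 1.77 and 2.99 in LG_eTconv, with the spread of these replicates (SD 0.99) wider than for the others, and at most 0.77 on the other 8 arrays. Its LG_eTconv mean was at least 3.05-fold above LG_eTreg and at least 2.62-fold above LG_naive. A probe set with signal in most samples read 1.62, 1.46 and 1.71 in LG_eTreg, 2.10, 2.51 and 1.77 in LG_eTconv and 1.54, 1.55 and 1.56 in LG_naive. There the gland groups did not overlap between LG_eTconv and LG_naive, but the log2 difference was only 0.58, and Spl_CD4 at 1.82 lay within the LG_eTconv range. The other 6 Meg3 probe sets stayed at or near background, with log2 differences between LG_eTconv and LG_naive from -0.22 to 0.46.

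**Figure D2:**
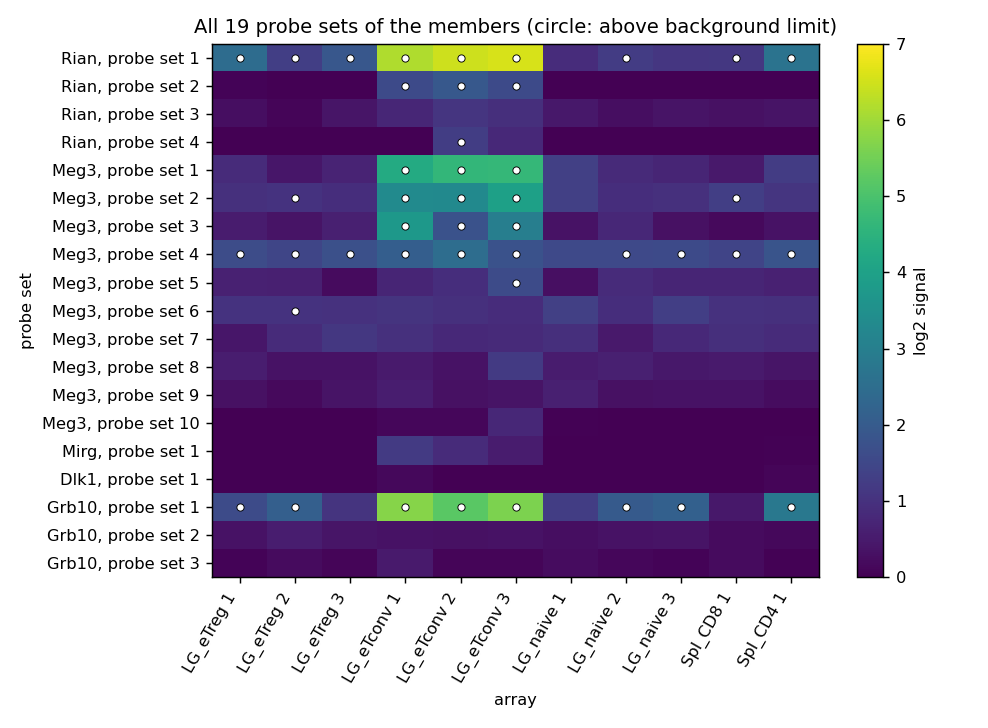
Log2 signal (colour) of the 19 probe sets, in rows by gene and then by LG_eTconv mean, on the 11 arrays in columns. White circles mark signals above the background limit of the array. Circles fill all 3 LG_eTconv columns in 7 rows, all 3 LG_eTreg columns in 2 rows and all 3 LG_naive columns in 0 rows.

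Across the 5 genes, 10 of the 19 probe sets exceeded background on any array: 3 of Rian, 6 of Meg3, 1 of Grb10 and 0 of Mirg and Dlk1. In 9 of 19 probe sets all 3 LG_eTconv arrays lay above the other 8, beside 2.91% of the 45037 probe sets on the array. By the brightest probe set of each gene this held for 4 of 5 genes, beside 3.7% of the 17097 genes. The members were selected for this pattern, so nothing is read from these counts.

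Mirg and Dlk1 were below background on all 11 arrays. The Mirg probe set read -0.14, -0.09 and -0.01 in LG_eTreg, 1.18, 0.87 and 0.54 in LG_eTconv and -0.01, -0.01 and -0.02 in LG_naive. The spleen arrays read -0.05 for Spl_CD8 and 0.05 for Spl_CD4. All 3 LG_eTconv signals lay above the rest while each stayed under its limit, so the log2 difference of 0.88 (SE 0.15) from LG_naive is a difference between values called undetected. The Dlk1 probe set read -0.23, -0.06 and -0.16 in LG_eTreg, 0.15, -0.13 and -0.14 in LG_eTconv and -0.07, -0.13 and -0.13 in LG_naive, with Spl_CD8 at -0.13 and Spl_CD4 at 0.09. These Dlk1 groups overlapped, and the log2 difference between LG_eTconv and LG_naive was 0.07 (SE 0.11).

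Among the other imprinted genes of the region, only Dio3os, the RNA antisense to Dio3, had a probe set of its own, and it was below background on all 11 arrays (0.48 ± 0.14 in LG_eTreg, 0.72 ± 0.24 in LG_eTconv, 0.34 ± 0.03 in LG_naive; SD, n = 3 each). The other 3 listed, among them Rtl1 and Dio3, were not analysed here. Genes on either side that are not known as imprinted were tested with limma over all 17097 genes with Benjamini-Hochberg adjustment, which called 13.5% of all genes for LG_eTconv minus LG_naive. Of the 10 flanking genes measured, 0 were called in that comparison, and 2 had an unadjusted p under 0.05, beside 25.1% of all genes. Their median log2 difference was -0.14, against -0.03 over all genes. Wdr25, the nearest measured gene on the Dlk1 side, differed by 0.08 (adjusted p = 0.93 by limma). Ppp2r5c, a phosphatase subunit and the nearest on the Dio3 side, differed by 0.15 (adjusted p = 0.492 by limma) by its brightest probe set. Its other probe sets above background on all 11 arrays gave 0.19, 0.21, 0.60 and 1.26. The last of these gave 1.04 for LG_eTreg minus LG_naive. Evl, an actin regulator, was lower in LG_eTreg (5.38 ± 0.69) than in LG_eTconv (7.36 ± 0.11) and LG_naive (8.26 ± 0.07; SD, n = 3 each), with log2 differences of -1.98 (adjusted p = 0.00499) and -2.88 (adjusted p = 0.000349 by limma). It was the 1 flanking gene called in each of these comparisons. The difference of -0.89 between LG_eTconv and LG_naive was not called for Evl, but was with the mean of its probe sets (adjusted p = 0.0143), with only these groups fitted (0.00297), without LG_eTreg 3 (0.00268) and without the 3 libraries that stood apart (0.0231).

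**Figure D3:**
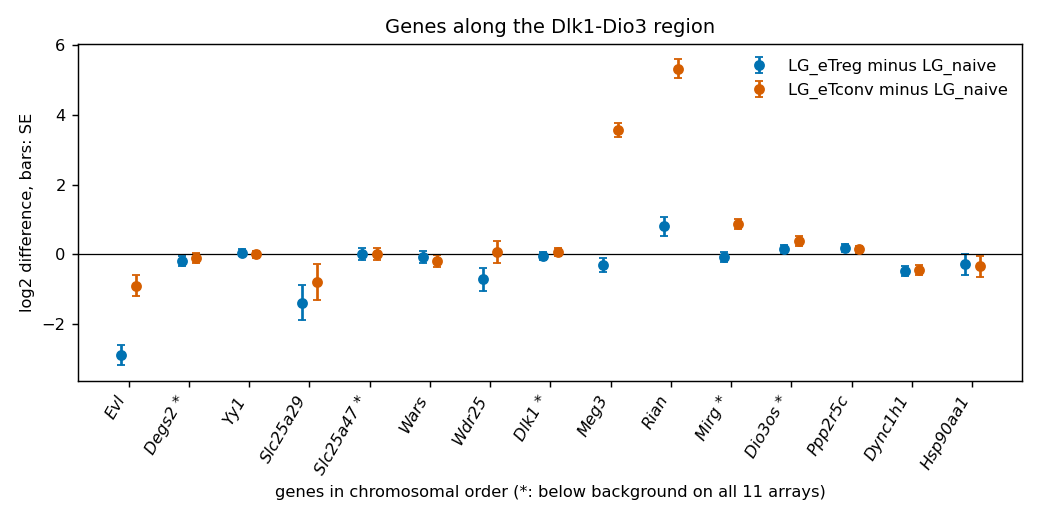
Log2 difference from LG_naive for LG_eTreg (blue) and LG_eTconv (orange), with SE bars, for 15 genes in their order along mouse chromosome 12. Meg3 and Rian stand at 3.56 and 5.32 for LG_eTconv, while flanking genes lie between -0.89 and 0.15, each gene by its brightest probe set. An asterisk marks genes below background on all 11 arrays, among them Mirg and Dlk1.

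Grb10, on another chromosome, was likewise brightest in LG_eTconv cells. Its brightest probe set read 1.61, 2.12 and 1.04 on the LG_eTreg arrays, 5.72, 5.22 and 5.61 on the LG_eTconv arrays, and 1.26, 1.99 and 2.16 on the LG_naive arrays. Spl_CD8 read 0.46 and Spl_CD4 2.80. LG_eTconv lay above all other arrays, and LG_eTreg and LG_naive overlapped. The mean was 1.59 ± 0.54 in LG_eTreg, 5.51 ± 0.26 in LG_eTconv and 1.80 ± 0.48 in LG_naive (SD, n = 3 each). LG_eTconv minus LG_naive was 3.71 (SE 0.32), or 13.1-fold with 2 of 3 LG_naive arrays above the limit, and LG_eTreg minus LG_eTconv was -3.92 (SE 0.32). LG_eTreg minus LG_naive was -0.21 (SE 0.32), within the spread of the arrays. The other 2 Grb10 probe sets read at most 0.55 on any array and were below background throughout, with log2 differences of 0.01 and 0.09 between LG_eTconv and LG_naive.

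Calls among the genes around Grb10 were mixed. Of 5 neighbours measured, 2 were higher in LG_eTconv than in LG_naive and 0 were lower, beside 13.5% of all genes called. Fignl1, an ATPase of DNA repair, averaged 3.10 ± 0.32 in LG_eTconv and 0.32 ± 0.11 in LG_naive (SD, n = 3 each), a measured log2 difference of 2.79. All LG_naive arrays were below background, so LG_eTconv was at least 3.16-fold higher (adjusted p = 2.09e-05 by limma), and LG_eTreg at least 2.11-fold higher than LG_naive (adjusted p = 9.76e-05). Ddc, the enzyme that makes dopamine and serotonin, is imprinted with Grb10 in the mouse heart. It read 2.39, 1.98 and 1.86 in LG_eTreg, 3.21, 3.93 and 2.80 in LG_eTconv and 1.36, 1.55 and 0.54 in LG_naive. Ddc was higher in LG_eTconv than in LG_naive by 2.16 (adjusted p = 0.00343 by limma), although its highest array was Spl_CD8, at 4.82. Ikzf1, the lymphoid factor Ikaros, differed by -0.25 between LG_eTconv and LG_naive (adjusted p = 0.135), and it was lower in LG_eTreg than in LG_naive (log2 difference -0.52, adjusted p = 0.00839 by limma). That call was lost without the 3 libraries that stood apart (adjusted p = 0.0531). Cobl, an actin nucleator, differed by -0.66 (adjusted p = 0.259), with LG_eTconv below background. Between LG_eTreg and LG_eTconv 0 of the 5 neighbours were called by limma, and 3 had an unadjusted p under 0.05, beside 16.2% of all genes. With the replicate block Ddc was called (log2 difference -1.24, adjusted p = 0.0367).

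By the brightest probe set of each gene, the order of levels over the 5 groups was led by LG_eTconv for Rian, Meg3 and Grb10. There LG_eTconv overlapped no other group. For Rian the next were Spl_CD4, LG_eTreg, Spl_CD8 and LG_naive, of which Spl_CD8 at 1.12 lay within the LG_naive range. For Grb10 the next were Spl_CD4, LG_naive, LG_eTreg and Spl_CD8, of which LG_naive and LG_eTreg did not differ beyond their spread. For Meg3 all groups after LG_eTconv were below background by this probe set and have no order. Another Meg3 probe set was above background on at least 1 array of every group. Against the single Spl_CD4 array the LG_eTconv mean was higher by 3.74 for Rian and 2.72 for Grb10 in log2, and at least 7.83-fold higher for Meg3. With 1 array per spleen group there is no test. A log2 difference of at least 1 in that direction was found in 6.59% of all genes. Spl_CD4 was above background for Rian and Grb10, and in Spl_CD8 the Grb10 signal was below background.

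The genes most alike in pattern to the mean of Rian, Meg3 and Mirg were 1810009J06Rik (Pearson r = 0.994 over the 11 arrays), Lpar3 (0.992), Col24a1 (0.991), Edn3 (0.989) and Wnt3 (0.987), among 11157 genes above background on at least 3 arrays. A gene could pass that filter through the 3 LG_eTconv arrays alone, as Lpar3, Col24a1 and Wnt3 did. The same was so of P3h2 and Phldb1, named below for Grb10. The arrays fall into separate groups, so these values describe a shared step up in LG_eTconv and carry no p. Col24a1, a collagen chain, averaged 0.49 ± 0.12 in LG_eTreg, 7.06 ± 0.08 in LG_eTconv and 0.33 ± 0.09 in LG_naive (SD, n = 3 each). Lpar3, a receptor for lysophosphatidic acid, averaged 0.28 ± 0.36 in LG_eTreg, 4.77 ± 0.28 in LG_eTconv and 0.15 ± 0.03 in LG_naive. Edn3 and Wnt3 encode secreted ligands, endothelin 3 and a Wnt protein, and averaged 6.04 ± 0.31 and 5.17 ± 0.51 in LG_eTconv. The genes most alike to Grb10 were Slc15a1 (0.976), Gbp2b (0.973), P3h2 (0.966), Phldb1 (0.966) and 1810009J06Rik (0.966). Slc15a1, a transporter of small peptides, averaged 0.31 ± 0.19 in LG_eTreg, 4.61 ± 0.30 in LG_eTconv and 1.17 ± 0.69 in LG_naive, and read 2.11 in Spl_CD4.

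Most other imprinted genes were undetected or not called. Of 57 listed outside the members, 41 were measured, and 16 of these were below background on all 11 arrays, Igf2 and Peg3 among them. Between LG_eTconv and LG_naive 4 of the 41 were higher, 2 were lower and 35 were not called, beside 13.5% of all genes called. Their median log2 difference was -0.005, against -0.03 over all genes. In LG_eTreg against LG_naive 2 were higher and 0 lower, beside 11.7% of all genes called in either direction, and in LG_eTreg against LG_eTconv 1 was higher and 1 lower, beside 5.7%. H19 and Igf2r were not analysed here. Cdkn1c, a cell cycle inhibitor, averaged 1.86 ± 0.18 in LG_eTconv and 2.99 ± 0.92 in LG_naive (SD, n = 3 each) and was not called (log2 difference -1.13, adjusted p = 0.109 by limma). Without LG_naive 1 it was called (adjusted p = 0.0231 by limma), so this is not settled.

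Plagl1, a paternally expressed zinc finger transcription factor, was the imprinted gene outside the members with the largest rise. It read 6.16, 6.33 and 6.32 in LG_eTreg, 7.94, 7.83 and 7.99 in LG_eTconv and 3.61, 5.20 and 5.51 in LG_naive, with no overlap between these groups. The LG_eTconv minus LG_naive difference was 3.15 in log2 (SE 0.42, adjusted p = 0.00133 by limma), and 2.17 by its other probe set. For LG_eTreg it was 1.50 against LG_naive (adjusted p = 0.056) and -1.65 against LG_eTconv (adjusted p = 0.0639), neither called, and its other probe set gave -0.10 and -2.27. These 2 differences were called under 6 and 7 of the alternatives, among them leaving out LG_naive 1 (adjusted p = 0.00457 and 0.000239 by limma), and so are not settled. Ascl2, a maternally expressed basic helix-loop-helix factor known to act in follicular helper T cells, read 1.83, 1.11 and 1.14 in LG_eTreg, 3.29, 2.48 and 3.67 in LG_eTconv and 1.34, 1.12 and 0.98 in LG_naive. All LG_naive arrays were below background, so LG_eTconv was at least 3.26-fold higher (log2 difference 2.0, adjusted p = 0.00315 by limma). It was lower in LG_eTreg than in LG_eTconv (difference of -1.78, adjusted p = 0.0119), a call lost without LG_eTconv 1 (0.0517) or LG_eTreg 2 (0.0519), and without the 3 libraries that stood apart (0.155).

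Rasgrf1, a paternally expressed exchange factor for Ras, had the opposite placement. It read 2.04, 2.86 and 3.24 in LG_eTreg, 0.50, 0.82 and 0.49 in LG_eTconv and 0.51, 0.91 and 0.74 in LG_naive, and both LG_eTconv and LG_naive were below background on all arrays. LG_eTreg was at least 2.59-fold above LG_eTconv (adjusted p = 0.00293 by limma) and at least 2.41-fold above LG_naive (adjusted p = 0.00215). Both calls were lost when dim values were set to the background limit (adjusted p = 0.141 and 0.0917). Cd81, a tetraspanin, was higher than in LG_naive by 1.40 in LG_eTreg (adjusted p = 0.0335) and by 1.33 in LG_eTconv (adjusted p = 0.0364 by limma), with LG_naive 1 at 6.19 below every other array. Airn, the antisense RNA of the Igf2r locus, was lower in LG_eTconv than in LG_naive (log2 difference -1.56, adjusted p = 0.0252), and so was Snrpn, a spliceosome protein (log2 difference -0.69, adjusted p = 0.0198 by limma). The calls of Cd81, Airn and Snrpn in LG_eTconv were each lost on leaving out one of several single arrays (adjusted p up to 0.102, 0.0905 and 0.0721). The Cd81 call in LG_eTreg was lost in the same way (up to 0.0891) and with the background floor (0.0872).

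**Figure D4:**
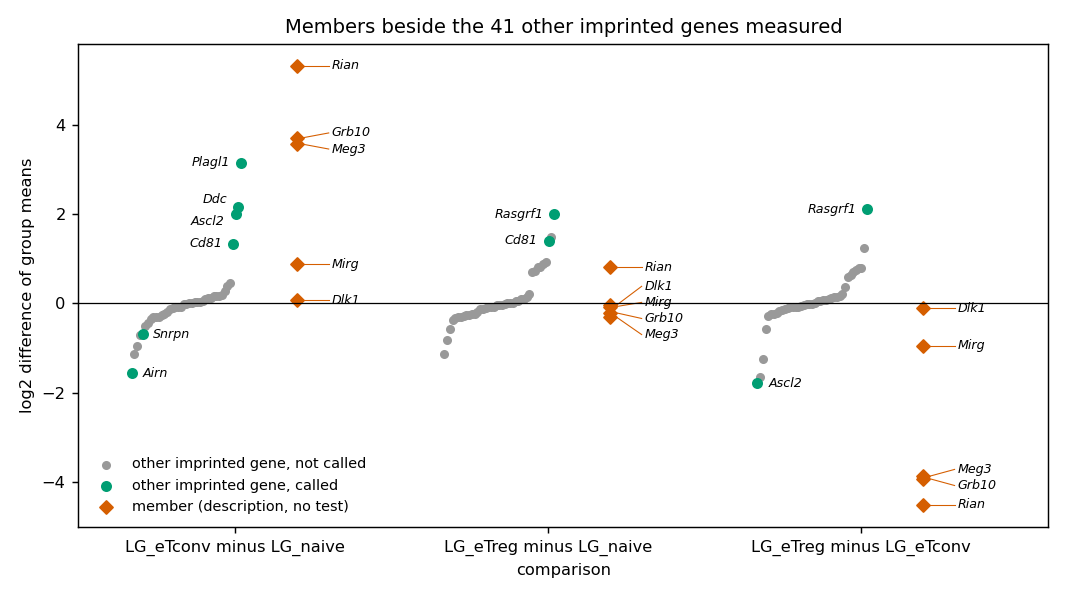
Log2 difference of group means in the 3 gland comparisons for the 41 other imprinted genes (circles, ordered by value, green where called by limma) and the 5 members (diamonds, no test). All values are from the brightest probe set of each gene with no background floor. On that scale Rian, Grb10 and Meg3 stand at 5.32, 3.71 and 3.56 in LG_eTconv minus LG_naive and Plagl1 at 3.15, an order that the floor and the mean of probe sets both change.

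Among proteins that write, read or erase imprints, 18 were measured. In LG_eTconv against LG_naive 4 were higher and 2 lower, beside 13.5% of all genes called, and the higher ones were Uhrf1 by 2.11, Ezh2 by 1.18, Jarid2 by 0.82 and Tet2 by 0.82 (adjusted p = 8.86e-05, 0.000869, 0.00223 and 0.00799 by limma). Uhrf1 recruits the maintenance methyltransferase to newly copied DNA, Ezh2 and Jarid2 belong to the Polycomb complex that methylates histone H3, and Tet2 oxidises methylated cytosine. The lower ones, Trim28 and Ctcf, were both lost without LG_naive 1 (adjusted p = 0.116 and 0.0706), and Trim28 was lost under most other alternatives too. In LG_eTreg against LG_naive 3 were higher and 2 lower, beside 11.7% of all genes. Uhrf1 was higher by 2.10 there (adjusted p = 0.000107 by limma). The other Uhrf1 probe set, above background on only 1 array, gave 0.39 for LG_eTconv and 0.55 for LG_eTreg, each minus LG_naive. Dnmt1, the maintenance methyltransferase, differed by -0.20 (adjusted p = 0.487 by limma) between LG_eTconv and LG_naive. Dnmt3a, a de novo enzyme, depended on the probe set: the brightest differed by 0.17 (adjusted p = 0.391) and the other 4 by 0.46 to 1.12, and the mean of all 5 was called (log2 difference 0.60, adjusted p = 0.00515 by limma). Aff3, which has been described in mouse embryonic stem cells as binding the control element of the Dlk1-Dio3 region, averaged 4.52 ± 0.34 in LG_eTreg, 7.86 ± 0.06 in LG_eTconv and 7.38 ± 0.11 in LG_naive (SD, n = 3 each). It was lower in LG_eTreg than in LG_eTconv (difference of -3.34, adjusted p = 1.15e-05) and LG_naive (log2 difference -2.86, adjusted p = 1.62e-05 by limma). Ctcf, a factor that binds imprinting control regions, was higher in LG_eTreg than in LG_eTconv by 0.54 (adjusted p = 0.0318), a call lost with the mean of its probe sets (0.712) and without any of several single arrays (up to 0.109).

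Around Grb10, 14 genes of insulin, IGF and mTORC1 signalling were measured. In LG_eTconv against LG_naive 1 was higher and 2 lower, beside 13.5% of all genes called. Igf1r, the IGF1 receptor that Grb10 binds, read 7.02, 6.74 and 7.06 in LG_eTreg, 7.74, 8.02 and 8.09 in LG_eTconv and 5.49, 5.23 and 5.91 in LG_naive. It was higher than in LG_naive by 1.40 in LG_eTreg (adjusted p = 0.00169) and by 2.40 in LG_eTconv (adjusted p = 6.87e-05 by limma), in 3 of 3 arrays of each. Its other 3 probe sets gave LG_eTconv minus LG_naive differences of 0.22, 0.77 and 3.19. The difference between LG_eTreg and LG_eTconv was -1.0 (adjusted p = 0.0171), lost without LG_eTconv 2, LG_eTconv 3 or LG_eTreg 2 (0.0685, 0.068 and 0.0662), and without the 3 libraries that stood apart (0.0829). Nedd4, a ubiquitin ligase that forms a complex with Grb10, averaged 1.50 ± 0.51 in LG_eTconv and 4.28 ± 0.25 in LG_naive (SD, n = 3 each), lower (log2 difference -2.78, adjusted p = 0.00423 by limma, and -1.33 by its other probe set). Pik3r1, the regulatory subunit of PI3 kinase, was lower in LG_eTconv than in LG_naive (log2 difference -1.14, adjusted p = 0.00173) and higher in LG_eTreg than in LG_eTconv by 1.0 (adjusted p = 0.00736 by limma). Insr, the insulin receptor, differed by 0.21 between LG_eTconv and LG_naive (adjusted p = 0.625). Of the related adaptors, Grb14 was below background on all gland arrays, and Grb7 was below background on all LG_eTconv arrays and at least 1.48-fold higher in LG_eTreg (measured log2 difference 0.80, adjusted p = 0.0472 by limma). That call was lost with the background floor (difference of 0.22, adjusted p = 0.771), with the replicate block (0.0674), with only these groups fitted (0.119) and without 1 of several single arrays (up to 0.145).

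**Figure D5:**
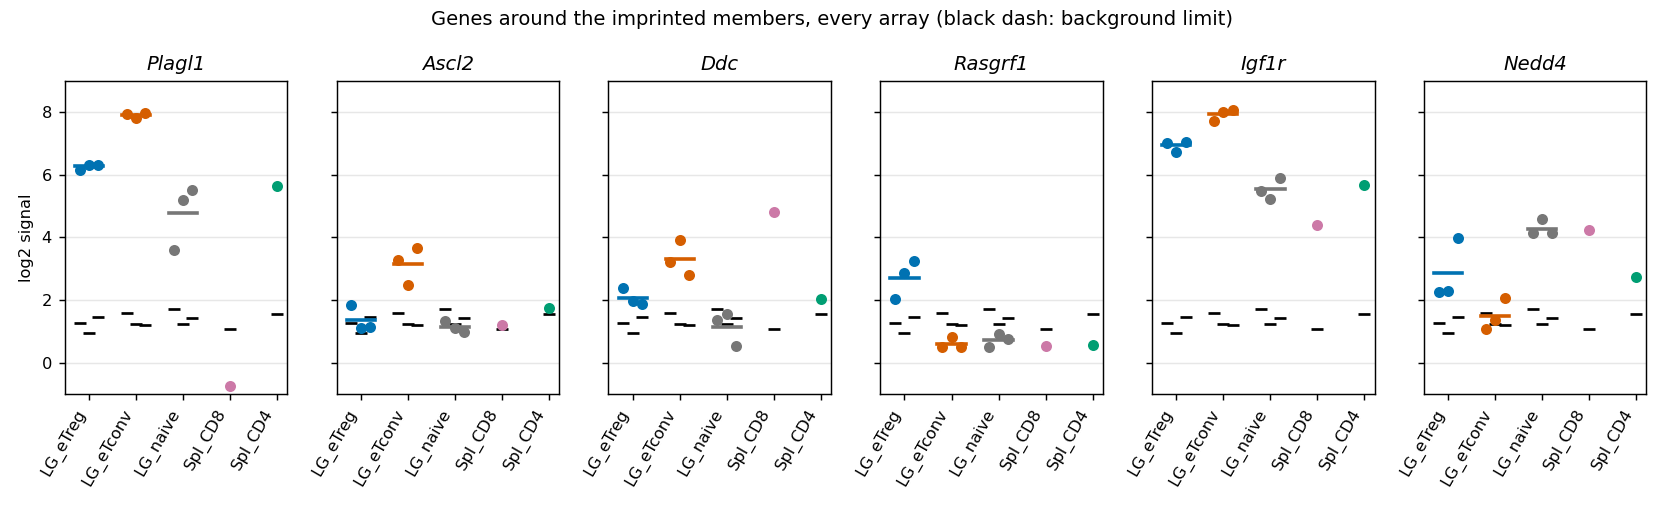
Log2 signal on each of the 11 arrays for 4 imprinted genes outside the members (Plagl1, Ascl2, Ddc, Rasgrf1) and 2 genes of the Grb10 pathway (Igf1r, Nedd4), by group, with coloured lines for means of 3 arrays and black dashes for background limits. Plagl1 and Ascl2 are highest in LG_eTconv, Ddc is highest in Spl_CD8, and Rasgrf1 exceeds its dashes in LG_eTreg alone.

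Of 15 Notch pathway genes measured, the pathway to which Dlk1 is related, 1 was higher and 4 were lower in LG_eTconv than in LG_naive, beside 13.5% of all genes called. Rbpj, the DNA-binding partner of cleaved Notch, was higher by 2.16 (adjusted p = 2.66e-05). Nrarp and Dtx1, both induced by Notch signals, were lower (log2 differences -2.35 and -2.30, adjusted p = 0.000105 and 0.000844 by limma), as was Lfng, which adds sugars to Notch (-0.73, adjusted p = 0.000986). The fourth lower call, Dll1, was lost with the replicate block (adjusted p = 0.0503) and without any of several single arrays (up to 0.0787). The other Dtx1 probe set was also above background on all arrays. It gave -1.38 for LG_eTconv minus LG_naive, -0.21 for LG_eTreg minus LG_naive and 1.17 for LG_eTreg minus LG_eTconv. The brightest Dtx1 probe set was instead called lower in LG_eTreg than in LG_eTconv by limma (log2 difference -1.31). That call was lost with the mean of probe sets (difference of -0.07, adjusted p = 0.955 by limma). It was also lost with the background floor (0.0857) and without any of several single arrays (up to 0.0988). In LG_eTreg Rbpj was higher than in LG_naive by 1.60 (adjusted p = 0.000169) and Dtx1 lower (log2 difference -3.60, adjusted p = 8.41e-05). Nrarp was higher in LG_eTreg than in LG_eTconv by 1.95 (adjusted p = 0.000666 by limma). The ligand gene Jag1 was below background on all LG_eTconv arrays and at least 3.05-fold higher in LG_eTreg (measured log2 difference 2.08, adjusted p = 0.0246 by limma). That call was lost with the background floor (difference of 1.25, adjusted p = 0.0787) and without LG_eTreg 1, LG_eTreg 2, LG_eTconv 2 or LG_eTconv 3 (up to 0.0927).

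Of 10 other long non-coding RNAs measured, 0 were higher and 1 was lower in LG_eTconv than in LG_naive, beside 13.5% of all genes called. That was Snhg5, a host of small nucleolar RNAs, (log2 difference -0.59, adjusted p = 0.00267 by limma), a call lost with the mean of its probe sets (0.136). Malat1 and Neat1, RNAs of nuclear bodies, differed by 0.09 and 0.33 (adjusted p = 0.686 and 0.121 by limma). Miat was higher in LG_eTreg than in LG_naive by 1.85 (adjusted p = 0.00791) and than in LG_eTconv by 1.92 (adjusted p = 0.0115), the last lost without LG_eTconv 2 (0.0505) and with the background floor (0.06).

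Markers of other cell types were summed on the linear scale beside these results. Fibroblasts are a cell type in which Meg3 and Rian are known to be expressed. Of 8 fibroblast and mesenchymal markers measured, limma called 0 in each of the 3 comparisons, and at an unadjusted p under 0.05 there were 2 for LG_eTconv against LG_naive, 3 for LG_eTreg against LG_naive and 1 for LG_eTreg against LG_eTconv, beside 25.1%, 23.0% and 16.2% of all genes. Col1a2 and Pdgfra were below background on all arrays. The summed signal ran from 396.5 to 439.2 in LG_eTreg, 468.3 to 504.4 in LG_eTconv and 372.6 to 441.4 in LG_naive, most of it from Thy1, which T cells also carry. Without Thy1 it ran from 12.8 to 13.9 in LG_eTreg, 12.4 to 15.4 in LG_eTconv and 14.0 to 32.4 in LG_naive. Epithelial markers summed to 158.5 to 290.8 in LG_eTreg, 68.7 to 103.2 in LG_eTconv and 317.9 to 725.7 in LG_naive, with 4 of 8 called lower in LG_eTconv than in LG_naive and Krt19 and Cldn3 below background throughout. For this list and those below, the share of all genes called in LG_eTconv against LG_naive was 13.5%. Endothelial markers summed to 10.1 to 13.7 in LG_eTreg, 21.1 to 22.5 in LG_eTconv and 45.2 to 61.3 in LG_naive, with 2 of 6 lower in LG_eTconv, and Emcn below background. Myeloid markers summed to 135.5 to 148.2 in LG_eTreg, 126.9 to 160.0 in LG_eTconv and 574.8 to 744.2 in LG_naive, with 6 of 8 lower in LG_eTconv, and Itgam below background. Markers of B cells summed to 13.6 to 18.4 in LG_eTreg, 30.0 to 40.9 in LG_eTconv and 53.1 to 68.4 in LG_naive, with 1 of 5 lower in LG_eTconv and Pax5 below background. T cell markers summed to 3523.9 to 3855.0 in LG_eTreg, 3347.4 to 3646.9 in LG_eTconv and 2857.1 to 2892.6 in LG_naive, with 3 of 7 higher in LG_eTconv than in LG_naive and every one detected. In LG_eTreg against LG_naive, 2 epithelial, 3 endothelial, 6 myeloid and 4 B cell markers were called lower. Of the T cell markers 3 were higher there, beside 11.7% of all genes called. Against LG_eTconv, epithelial Epcam and Krt18 and myeloid Cd14 were called higher in LG_eTreg. Endothelial Pecam1, Blnk of B cells, Cd4 and Cd8a were called lower in LG_eTreg than in LG_eTconv, beside 5.7% of all genes called. Markers of CD8, natural killer and innate lymphoid cells summed to 44.6 to 49.7 in LG_eTreg, 82.4 to 124.9 in LG_eTconv and 40.1 to 57.4 in LG_naive, with Cd8a higher and Eomes lower in LG_eTconv than in LG_naive, and Ncr1 and Zbtb16 below background throughout. Among the gland groups Cd8a was highest in LG_eTconv, as were Rian, Meg3 and Grb10, but the spleen arrays were placed otherwise. Cd8a read 9.35 in Spl_CD8 and 4.45 in Spl_CD4, where Rian read 1.12 and 2.66 and Grb10 0.46 and 2.80. The part of CD8, natural killer or innate lymphoid cells in the signal of the members was not tested. Cd8b1 differed by -0.16 between LG_eTconv and LG_naive (adjusted p = 0.809 by limma), and the median of the 6 measured was 0.06. In Spl_CD8 that list summed to 873.1. There the brightest probe sets of Meg3 and Grb10 were below background, and that of Rian was just above it. Other Meg3 probe sets read 1.31 and 1.45 in Spl_CD8, above the limit of 1.08 for that array.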

How the data were processed

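RNA of 11 sorted T cell samples was hybridised to arrays of perfect-match probes. Per the submitters' processing notes, the authors processed the deposited log2 values by RMA within Partek software, and versions are not given in the sources used here. The 104 controls among 45141 probe sets were left out. Of the rest, 28898 carried a single symbol, 551 more than 1, and 15588 none in the annotation used. Each of 17097 genes was represented by its brightest probe set on average over the 9 gland arrays. Genes outside the members were compared by limma (3.58.1, R 4.3.3), with 1 mean per group and 6 residual degrees of freedom. Tests were two-sided, and calls needed p under 0.05 after Benjamini-Hochberg adjustment across all genes. Differences run first group minus second. A fold is "at least" where the dim group lay below its limits on all arrays. The fit was tested on simulated data. The members and lists were chosen with earlier results of these data known. From each list up to 4 called genes with the largest difference per comparison were named, plus 20 genes fixed in any case, such as Igf2 and Dnmt1. Alternatives were another probe set summary, normalization, background floor, dim filter, fit, replicate block and left-out arrays. The labels give 1 sample a lower RNA integrity number without tying it to a group.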

Additional observations from a re-analysis of the deposited data

How the results depend on the processing

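Rian, Meg3 and Grb10 kept the sign of their differences between LG_eTconv and both other gland groups under every alternative run. The members were selected for this difference in these arrays, so the kept sign carries no weight. The size of the differences depended on how probe sets and background were treated. Averaging all probe sets of a gene gave LG_eTconv minus LG_naive differences of 2.15 for Rian, 0.99 for Meg3 and 1.27 for Grb10, gave -1.94, -1.09 and -1.31 for LG_eTreg minus LG_eTconv, and gave 0.20 for Rian in LG_eTreg minus LG_naive. By construction this mixes in probe sets at background. Setting dim values to the highest background limit gave 4.70 for Rian, 2.83 for Meg3 and 0 for Mirg in LG_eTconv minus LG_naive, 0.32 for Rian and 0 for Meg3 and Mirg in LG_eTreg minus LG_naive, and -2.83 for Meg3 and 0 for Mirg in LG_eTreg minus LG_eTconv. Leaving out the 3 libraries that stood apart, an alternative chosen after seeing the data, gave 3.87 for Meg3 in LG_eTconv minus LG_naive. The count of other imprinted genes called, 6 in LG_eTconv minus LG_naive, ran from 3 to 7 over the left-out arrays (lowest without LG_eTconv 1 or LG_eTconv 2). In LG_eTreg minus LG_naive it was 2, ran from 1 to 4 over the left-out arrays (highest without LG_naive 1), and was 0 with the background floor and 1 with only the 2 groups compared. In LG_eTreg minus LG_eTconv it was 2, ran from 1 to 3 (lowest without LG_eTconv 1), and was 1 with the floor. Over all 9 pathway and imprinted lists the count in LG_eTreg minus LG_eTconv was 14, ran from 8 to 14 (lowest without LG_eTconv 2 or LG_eTreg 2), and was 9 with the floor. The cause of these changes was not tested. Same-numbered LG_eTreg and LG_eTconv arrays deviated together with correlations of 0.283, 0.0788 and 0.171. Each was above the 0.02 that was highest among differently numbered ones, a hint from the data and not the design. Deviations from a group mean offset each other within the group, so part of this gap is built in. Same-numbered pairs with LG_naive ran from -0.10 to 0.14. Not every pair exceeded 0.1, so the numbers were not used as pairs. With the replicate block the 9 lists gave 21, 15 and 15 calls in the 3 comparisons, against 22, 16 and 14 without it, and the member differences were unchanged by construction. Signal over background limits Mirg, Dlk1 and the Meg3 probe sets that were below background on all arrays, for which no level can be given.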
